A study of Homo sapiens with 4 samples.

Results

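The collagen genes of HaCaT cells were taken as every protein-coding gene whose symbol had the form of a collagen chain (COL, a type number, A and a chain number), with COL17A1, the hemidesmosomal collagen of keratinocytes, left out. This gave 43 genes of 19233 protein-coding genes, in files that listed 44591 genes of every type. HaCaT is an immortalized line of human epidermal keratinocytes, and RNA sequencing was run on 4 samples of it (replicates 1 to 4). No sample was treated, and the labels gave a medium with 12% fetal bovine serum for all of them (the study's methods state a lower share of serum for HaCaT), so that the series holds 1 condition and the comparisons are between genes and between replicates. The study calls them biological repeats, and neither it nor the labels say how their cultures were separated, so that the p-values below measure only the spread between these samples. The level of a gene is its TPM, the count divided by gene length and scaled to a sum of 1000000 over the protein-coding genes of each replicate.

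Collagens are extracellular proteins in which chains with a repeated glycine motif wind around each other into a triple helix. Fibrillar collagens (such as types I, III and V) form the fibrils of connective tissue and are made mainly by fibroblasts. In skin, keratinocytes contribute to the sheet beneath them: type IV collagen forms the network of the basement membrane, and type VII collagen forms the anchoring fibrils that tie this membrane to the dermis. Before a collagen leaves the cell, enzymes hydroxylate its prolines and lysines and chaperones help it fold; outside the cell its ends are trimmed and its chains are cross-linked.

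The 6 genes of type IV collagen lie head to head in pairs, so that the chains of a pair are read away from each other out of a shared stretch of DNA. The stretches are shown because the chain levels reported below are compared within these pairs. They were read from RefSeq (GRCh38.p14), on the plus strand, 5′ to 3′, and capitals mark the motifs CCAAT and, where present, GGGCGG on either strand. The first is the whole stretch of 126 bases between the starts of COL4A1 and COL4A2 (chr13:110307158-110307283), and the others are the 250 bases next to the start of COL4A5 (chrX:108439588-108439837, of 379 bases between COL4A6 and COL4A5) and of COL4A3 (chr2:227164374-227164623, of 418 bases between COL4A4 and COL4A3).
COL4A1 and COL4A2: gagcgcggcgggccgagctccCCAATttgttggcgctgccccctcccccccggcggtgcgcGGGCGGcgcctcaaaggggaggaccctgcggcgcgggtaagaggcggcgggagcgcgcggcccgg
COL4A6 and COL4A5: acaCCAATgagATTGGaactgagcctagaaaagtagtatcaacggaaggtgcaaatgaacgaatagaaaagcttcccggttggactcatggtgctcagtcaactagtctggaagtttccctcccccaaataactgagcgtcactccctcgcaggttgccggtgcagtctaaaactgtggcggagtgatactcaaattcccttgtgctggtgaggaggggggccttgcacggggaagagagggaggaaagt
COL4A4 and COL4A3: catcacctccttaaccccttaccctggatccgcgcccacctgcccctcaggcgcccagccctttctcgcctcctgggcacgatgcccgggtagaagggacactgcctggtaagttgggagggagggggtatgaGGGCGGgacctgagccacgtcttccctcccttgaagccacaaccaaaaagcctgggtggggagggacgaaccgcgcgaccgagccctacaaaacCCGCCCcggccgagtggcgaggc

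The stretch between COL4A1 and COL4A2 was 80.2% G and C with 20 CG pairs, where the median of 35116 RefSeq promoters over windows of 126 bases was 60.3% and 6. It had 1 match to CCAAT with 1 match to GGGCGG, which 21.1% and 34.6% of promoters held in such a window. The COL4A5 stretch was 51.2% G and C with 8 CG pairs and had 2 matches to CCAAT but lacked GGGCGG, and the COL4A3 stretch was 66.4% G and C with 17 CG pairs and had 2 matches to GGGCGG but lacked CCAAT. Over windows of 250 bases the median promoter was 58% G and C with 11 CG pairs, and 32% held CCAAT while 42.6% held the motif GGGCGG. None of these windows held TATAAA, and 5.87% and 10.7% of promoters held it in windows of 126 and 250 bases. Of the 43 collagen genes, 31 had a promoter in the RefSeq table.

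The libraries differed in depth and make-up. Replicate 1 held 73082279 counts, of which 76.1% fell on protein-coding genes, and the other replicates held 17056035 to 19745170 counts with 95.3% to 96.4% on protein-coding genes. Replicate 1 thus stood apart, and values without it are given where it decides a result. The keratinocyte label held in each library: 10 of 10 keratinocyte markers were above 1 TPM in every replicate, and KRT14, a keratin of basal keratinocytes, was at 6824, 7642, 6547 and 6375 TPM in replicates 1 to 4. Of the markers of other cells, 3 of 10 fibroblast, 2 of 6 melanocyte, 1 of 6 immune and 0 of 6 endothelial markers had a mean above 1 TPM. The share of all protein-coding genes was 63.3%. Those that passed were TWIST2, MFAP5 and LUM, MITF and PMEL, and CD14. Among the endothelial markers VWF was at 2.36 TPM in replicate 1 and CDH5 at 1.49 TPM in replicate 4. In bulk samples, fewer cells of a type and less RNA per cell cannot be told apart.

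The collagen genes were mostly low in these cells. A mean above 1 TPM, taken here as detected, was reached by 18 of 43 (41.9%), beside 63.3% of all protein-coding genes. The median of the 43 mean levels was 0.573 TPM, and that of all protein-coding genes was 7.21 TPM. The summed collagen level was 230.3, 349, 238 and 592 TPM in replicates 1 to 4, or 352 ± 169 TPM (SD, n = 4), which was below the level of COL17A1 alone in replicates 1 to 3 (612, 532 and 269.8 TPM) and above it in replicate 4 (476 TPM). Of the 18 detected genes, 11 were above 1 TPM in every replicate, and the same share over all detected protein-coding genes was not computed. COL8A1, COL10A1 and COL5A2 passed only through the replicate in which they were highest, and without it their means were 0.877, 0.225 and 0.48 TPM. The same was true of 364 of the 12165 detected protein-coding genes.

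**Figure D1:**
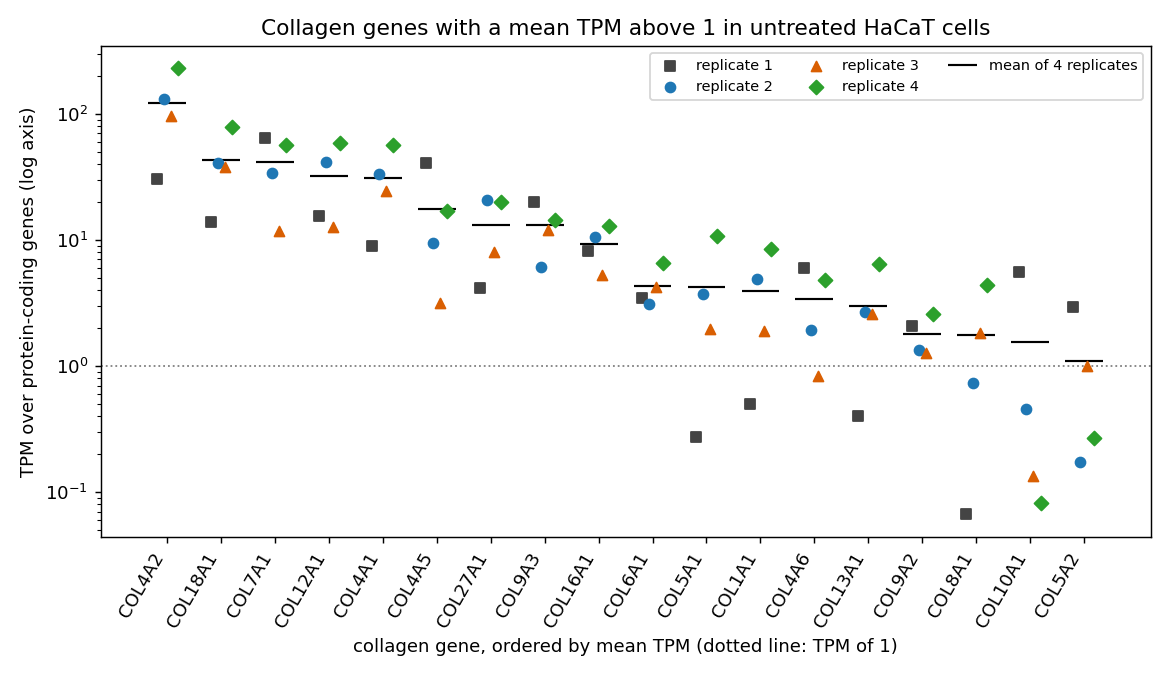
Level in TPM (log axis) of the 18 detected collagen genes, with 1 point per replicate, a bar at the mean and a dotted line at 1 TPM. COL4A2 is highest by its mean of 122 TPM, and COL8A1, COL10A1 and COL5A2 lie on both sides of the dotted line.

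Collagen RNA was concentrated in a few genes, among them those of the basement membrane zone. The highest 5 by mean level, COL4A2, COL18A1, COL7A1, COL12A1 and COL4A1, took 57.7%, 80.3%, 77% and 81.1% of the summed collagen TPM in replicates 1 to 4. The type IV genes together took 37.5%, 50.4%, 52.6% and 52.2%. COL4A2 alone took 37.5% to 40.5% in replicates 2 to 4 and 13.2% in replicate 1. The share of type VII, which is COL7A1 alone, went the other way, with 27.8% in replicate 1 and 4.91% to 9.67% in the others.

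**Figure D2:**
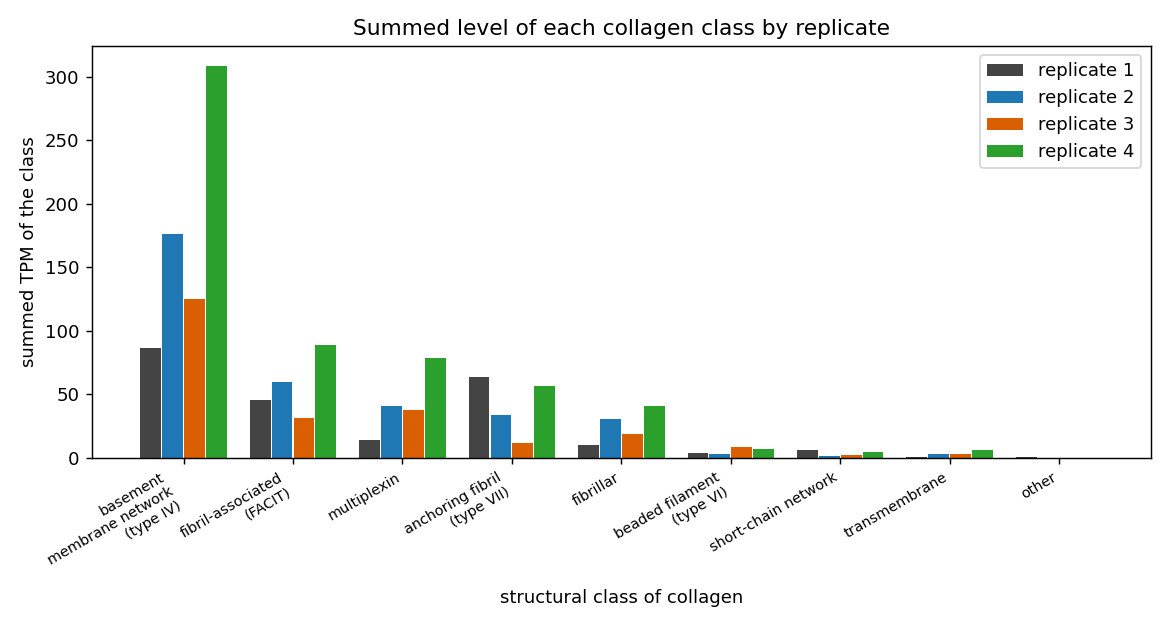
Summed TPM of each collagen class in replicates 1 to 4. The type IV class is highest in each replicate, from 86.4 TPM in replicate 1 to 309 TPM in replicate 4.

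COL4A2, which encodes the α2 chain of the basement membrane network, was the highest collagen gene by mean (chromosome 13, 110959614 to 111165556, plus strand, hg19). Its level was 30.4, 131, 96.4 and 229.9 TPM in replicates 1 to 4 (mean 122 ± 83.2 TPM, SD, n = 4), above 92.9% of protein-coding genes. Its partner chain COL4A1 (110801305 to 110959504 on the minus strand) was at 9.0, 33.5, 24.5 and 56.6 TPM (30.9 ± 19.9 TPM). Both were lowest in replicate 1 and highest in replicate 4, and without replicate 1 their means were 152 and 38.2 TPM.

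The ratio of the partners was far steadier than their levels. While COL4A2 spanned 7.56-fold and COL4A1 6.28-fold over the replicates, the COL4A2 to COL4A1 ratio per length stayed at 3.38 (95% interval 3.19 to 3.58), 3.91 (3.70 to 4.13), 3.93 (3.72 to 4.16) and 4.07 (3.91 to 4.23) in the same order of replicates. These exact binomial intervals cover counting error only. The intervals of replicates 2 to 4 overlapped, and that of replicate 1 lay below them. On the log2(TPM + 1) scale COL4A2 was higher by 1.88 ± 0.16 (SD, n = 4), in 4 of 4 replicates. With the union of exons as gene length the mean difference was 1.29, so that the size of the ratio depends on the lengths used. With 4 replicates the smallest p that the exact two-sided sign-flip permutation test allows is 0.13, the value that this pair had (0.196 after Benjamini-Hochberg adjustment over the 11 chain pairs compared).

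COL4A5 and COL4A6, the X-linked chains of the basement membrane network, were unequal as well. COL4A5 was at 40.8, 9.43, 3.14 and 17.0 TPM (17.6 ± 16.5 TPM, SD, n = 4) and COL4A6 at 5.95, 1.94, 0.84 and 4.79 TPM (3.38 ± 2.39 TPM). Both were highest in replicate 1 and lowest in replicate 3, so that this pair ordered the replicates differently from COL4A1 and COL4A2. COL4A6 was below COL4A5 in 4 of 4 replicates, by -1.80 ± 0.59 on the log2(TPM + 1) scale, and the ratio per length was 0.146, 0.206, 0.268 and 0.282 (exact permutation p = 0.13, adjusted 0.196). Without replicate 1 the mean of COL4A5 was 9.86 TPM.

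COL4A3 and COL4A4, the chains of the network known best from the kidney, were not detected. COL4A4 was at 0.159, 0.175, 0.129 and 0.766 TPM and COL4A3 lay between 0.0254 and 0.149 TPM. COL4A4 was higher in 4 of 4 replicates, by 0.25 ± 0.34 on the log2(TPM + 1) scale (exact permutation p = 0.13, adjusted 0.196) and by 0.08 without replicate 4, and COL4A3 rested on 3 to 8 counts in a replicate.

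**Figure D3:**
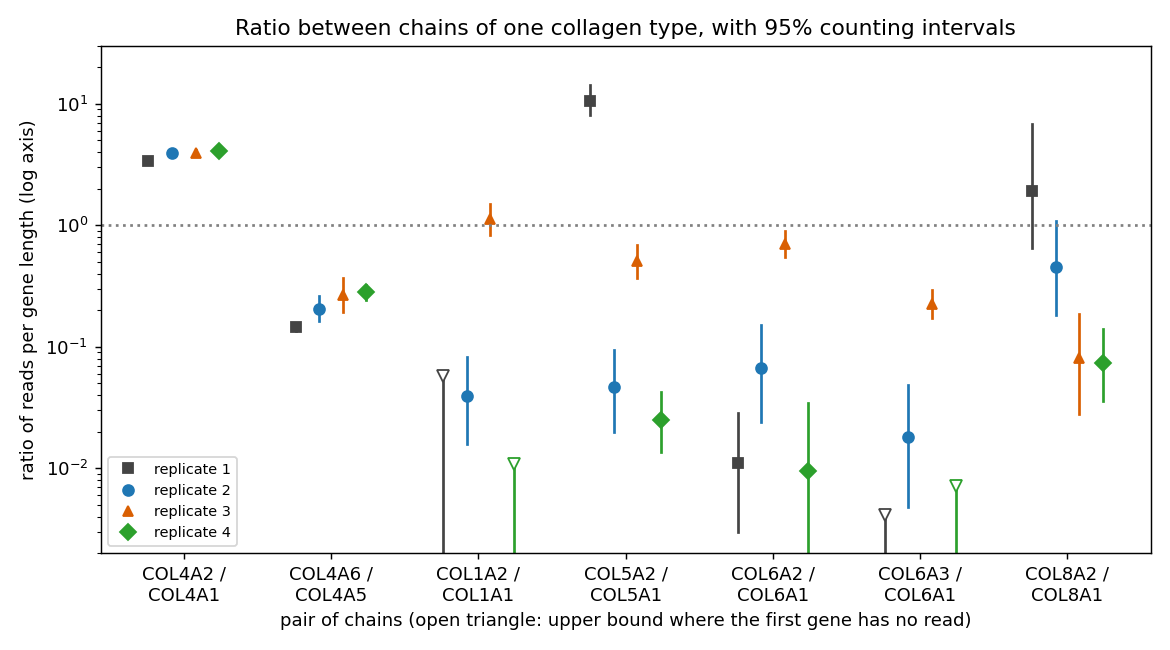
Ratio of counts per gene length (log axis) between chains of 7 pairs, with 1 point per replicate. Lines are 95% counting intervals and open triangles are upper bounds where the first chain had no count. COL4A2 to COL4A1 stays between 3.38 and 4.07, while COL5A2 to COL5A1 runs from 0.025 to 10.6.

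COL7A1, the anchoring fibril collagen, was at 64.0, 33.8, 11.7 and 56.3 TPM (41.5 ± 23.6 TPM, SD, n = 4; chromosome 3, 48601506 to 48632593, minus strand, hg19). It was the highest collagen gene in replicate 1, and COL4A2 was the highest in replicates 2 to 4. COL18A1, a multiplexin of basement membranes from which endostatin is cut, was at 13.9, 40.8, 37.9 and 78.6 TPM (42.8 ± 26.7 TPM; chromosome 21, 46825052 to 46933634, plus strand). The other multiplexin, COL15A1, rested on at most 3 counts in any replicate.

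Of the 10 fibril-associated collagens, which sit on the surface of fibrils or near basement membranes, 4 were detected, beside 63.3% of all protein-coding genes. COL12A1 was at 15.4, 41.3, 12.6 and 58.8 TPM (32.0 ± 22.1 TPM, SD, n = 4). COL16A1 was at 8.15, 10.6, 5.24 and 12.9 TPM (9.23 ± 3.30 TPM) and was above COL6A1, the next gene in the order, in 4 of 4 replicates. The remaining 2 belong to type IX, a collagen of cartilage: COL9A3 was at 20.1, 6.11, 12.1 and 14.4 TPM (13.2 ± 5.78 TPM) and COL9A2 at 2.06, 1.33, 1.26 and 2.61 TPM (1.81 ± 0.642 TPM). Their partner chain COL9A1 had 1 count in replicate 1 and none in the others. Both stood above it in 4 of 4 replicates, by 3.72 ± 0.65 for COL9A3 and 1.46 ± 0.32 for COL9A2 on the log2(TPM + 1) scale (exact permutation p = 0.13 for each, adjusted 0.196). The end of COL9A3 overlaps TCFL5 on the other strand, which had 2598, 755, 999 and 914 counts; whether the counting used strand is not given in the sources used here, and the share of such reads in COL9A3 was not tested.

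Of the 11 fibrillar collagens, 4 were detected, beside 63.3% of all protein-coding genes. The highest was COL27A1, a fibrillar collagen known from developing cartilage, at 4.19, 20.8, 8.02 and 19.9 TPM (13.2 ± 8.39 TPM, SD, n = 4). COL1A1, the main chain of type I collagen, was at 0.50, 4.92, 1.88 and 8.54 TPM (3.96 ± 3.57 TPM). COL5A1, which regulates fibril assembly, was at 0.276, 3.71, 1.96 and 10.8 TPM (4.20 ± 4.64 TPM). COL1A1 and COL5A1 ordered the replicates alike, lowest in replicate 1 and highest in replicate 4, and without replicate 4 their means were 2.43 and 1.98 TPM.

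The partner chains did not follow them. COL1A2, the second chain of type I collagen, had 0, 7, 102 and 0 counts where COL1A1 had 72, 194, 100 and 377, and its level was 0, 0.195, 2.10 and 0 TPM. The ratio of COL1A2 to COL1A1 per length was at its highest, 1.12 (95% interval 0.84 to 1.49), in replicate 3 and 0.0395 in replicate 2, and the counts of 0 bound it at 0.0576 in replicate 1 and 0.0108 in replicate 4. COL5A2 was at 2.93, 0.174, 0.995 and 0.271 TPM (1.09 ± 1.28 TPM), and its ratio to COL5A1 per length followed as 10.6, 0.0468, 0.508 and 0.025. Neither pair had a direction shared by every replicate at the deposited gene lengths: the difference was -1.51 ± 1.54 for COL1A2 minus COL1A1 (exact permutation p = 0.25, adjusted 0.306) and -1.04 ± 2.08 for COL5A2 minus COL5A1 (p = 0.375, adjusted 0.413) on the log2(TPM + 1) scale. Without 1 replicate at a time these differences ran from -2.05 to -0.93 and from -1.93 to -0.32, and with the union of exons as gene length COL1A2 was below COL1A1 in 4 of 4 replicates (-1.65, exact permutation p = 0.13). COL11A2 and COL11A1 were at or below 0.507 TPM in every replicate and differed by 0.07 ± 0.33 (exact permutation p = 0.75, adjusted 0.75).

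COL6A1 was the single detected chain of type VI, which forms beaded filaments around cells, at 3.45, 3.10, 4.27 and 6.51 TPM (4.33 ± 1.53 TPM, SD, n = 4). COL6A2 was at 0.0379, 0.208, 3.0 and 0.0618 TPM and COL6A3 at 0, 0.0563, 0.957 and 0 TPM. Both were below COL6A1 in 4 of 4 replicates, by -1.77 ± 1.02 and -2.11 ± 0.61 on the log2(TPM + 1) scale (exact permutation p = 0.13 for each, adjusted 0.196). The ratio of COL6A2 to COL6A1 per length reached 0.703 in replicate 3, against 0.00949 to 0.0671 elsewhere.

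The short-chain and transmembrane collagens gave the last detected genes. COL13A1, a transmembrane collagen of cell junctions, was at 0.403, 2.66, 2.57 and 6.41 TPM (3.01 ± 2.49 TPM, SD, n = 4), with a mean of 1.88 TPM without replicate 4. COL8A1, a short-chain collagen of vessel walls and the eye, was at 0.0666, 0.73, 1.84 and 4.39 TPM (1.75 ± 1.90 TPM), and COL8A2 minus COL8A1 was -0.91 ± 0.94 on the log2(TPM + 1) scale (exact permutation p = 0.25, adjusted 0.306). COL10A1, the collagen of hypertrophic cartilage, was at 5.58, 0.457, 0.135 and 0.0816 TPM (1.56 ± 2.68 TPM), so that its mean rests on replicate 1 and was 0.225 TPM without it. COL10A1 lies within NT5DC1 on the other strand, which had 3321, 448, 590 and 796 counts (43.7, 21.5, 21.0 and 34.1 TPM) and was also highest in replicate 1; its part in the COL10A1 value was not tested.

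Of the 25 collagen genes that were not detected, 11 had a mean between 0.1 and 1 TPM. COL3A1, the second main collagen of dermis, was at 0.075, 0.0822, 2.72 and 0.685 TPM, and COL5A3 was at 2.13, 0.658, 0.216 and 0.348 TPM. COL8A2 lay between 0.127 and 0.332 TPM, COL11A2 between 0.13 and 0.273 TPM, COL22A1 between 0 and 0.331 TPM and COL26A1 between 0.0443 and 0.199 TPM. The others of this range, COL1A2, COL4A4, COL6A2, COL6A3 and COL11A1, are described with their partners or below. A further 12 genes had some count and a mean of at most 0.1 TPM: 5 fibril-associated, 2 fibrillar and 1 each of the type IV, type VI, multiplexin, transmembrane and unclassed genes. COL6A5 and COL25A1 had no count in any replicate, and a count of 0 allows up to 3 counts, which for COL6A5 is 0.0134 TPM at the depth of replicate 1 and 0.0489 TPM at that of replicate 2.

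The order of the detected genes was loose. Of the 17 pairs of neighbours in the order by mean level, 2 stood in that order in every replicate and differed by more than 1 SD. These were COL4A2 above COL18A1, by 1.40 ± 0.26 (SD, n = 4), and COL16A1 above COL6A1, by 0.92 ± 0.52 on the log2(TPM + 1) scale. The other neighbours, such as COL18A1 and COL7A1 (0.06 ± 1.57), did not differ beyond their spread.

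Replicates 2 to 4, which had similar depth, differed among themselves in the collagen genes. Of the 18 detected genes, 14 were at least 2-fold apart within these replicates on the log2(TPM + 1) scale (77.8%), where 22.7% of the 12165 detected protein-coding genes were. The median span was 1.21 for the collagen genes and 0.63 for all detected genes. Without replicate 3 the count was 4 of 19 (4.33% of all genes then detected), and without replicate 4 it was 6 of 19 (11.6%). Within replicates 2 to 4, the highest level was in replicate 4 for 15 of 18 collagen genes (43.8% of all detected genes), whereas replicate 2 was highest for 2 (36.1%) and replicate 3 for 1 (20.1%). Over all 4 replicates, 11 of 18 were highest in replicate 4 (23.3% of all detected genes), while replicate 1 had the highest level of 6 (40.2%), replicate 2 of 1 (23.3%) and replicate 3 of 0 (13.3%). COL8A1, COL10A1 and COL5A2, which passed only through 1 replicate, are among these 18 genes.

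Replicate 1 differed from the mean of the others in both directions. In it, 8 of 18 collagen genes were at least 2-fold lower (20.1% of all detected genes) and 5 of 18 were at least 2-fold higher (17.4%). The lower genes included COL4A2 (-2.19), COL5A1 (-2.10), COL4A1 (-1.89), COL1A1 (-1.86) and COL18A1 (-1.76) on the log2(TPM + 1) scale. COL8A1 (-1.48) is also among the 8, but it passed the detection limit only through replicate 4, so that its place there is no support. The higher genes were COL10A1 (2.44), COL4A5 (2.18), COL5A2 (1.45), COL7A1 (1.15) and COL4A6 (1.14), of which COL10A1 and COL5A2 passed the detection limit only through replicate 1, so that their place among the 5 is no support, and COL7A1 and COL4A6 turned to -0.35 and -0.06 when TPM was scaled over all genes of the files. COL9A3 (0.90 to -0.50) and COL9A2 (0.20 to -0.61) changed sign with that scaling as well. The scaling also moved the median of all detected genes from 0.03 to -1.27: it gave 62.5% lower and 1.75% higher of all genes passing the limit, and 11 lower and 0 higher of the 16 collagen genes detected on that scale. COL10A1, which was not detected on it, stayed at 1.19.

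Base composition moved with the replicate 1 differences. The detected collagen genes had a median GC content of 60.7% (45.5% to 67.4%) in their longest coding transcript, and all detected protein-coding genes with a value had 49.1% (11889 genes). Across genes, GC content and the replicate 1 difference had a Spearman rho of -0.51 over these 11889 genes and -0.20 over the 18 collagen genes. Genes are not independent replicates and share the same 4 libraries. The collagen genes were also long, with a median of 6494 bp among the detected ones and 3276 bp among all detected genes. The part of GC content and length in the collagen differences was not tested.

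**Figure D4:**
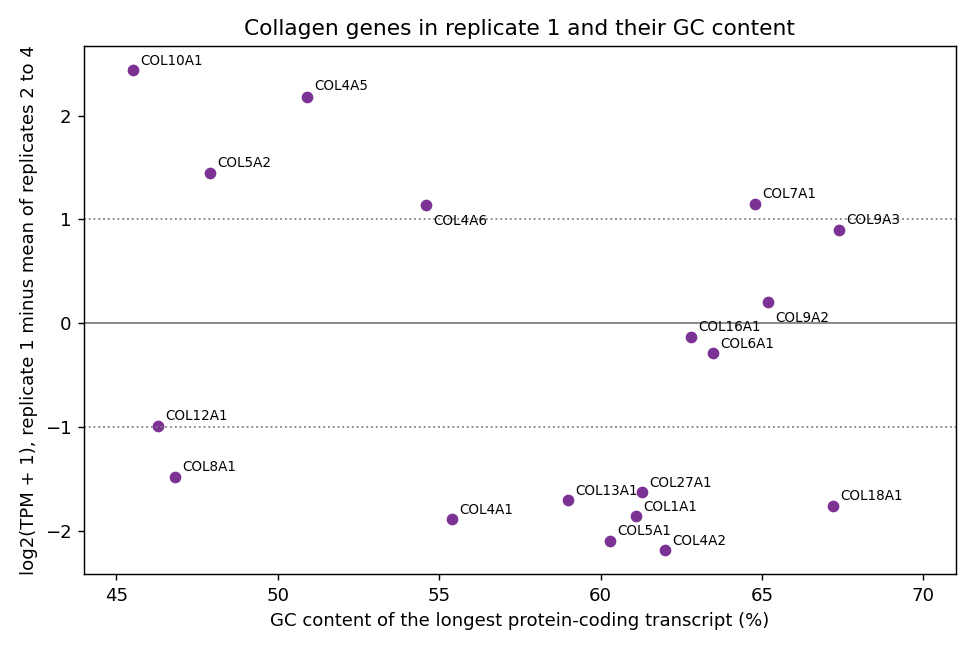
Difference of replicate 1 from the mean of replicates 2 to 4, in log2(TPM + 1), against GC content in percent, with 1 point for each of the 18 detected collagen genes; the solid line marks 0 and the dotted lines a 2-fold difference. COL10A1, at 45.5% GC, has the highest difference (2.44) and COL4A2 the lowest (-2.19), and genes above 60% GC lie on both sides of 0.

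A set of 5 interstitial collagen chains was picked for being highest in replicate 3, so that lower levels elsewhere follow from the choice. The set was chosen after its values were seen, as the collagen genes highest in replicate 3 with over 20 counts there, and held COL1A2, COL3A1, COL6A2, COL6A3 and COL11A1. COL1A2 had 102 counts in replicate 3 and at most 7 elsewhere, COL3A1 134 and at most 28, and COL6A2 117 and at most 6. COL6A3 had 92 counts and at most 4 elsewhere, and COL11A1 had 34 and at most 4. None of the 5 was detected by its mean, and in TPM they were 3.97-fold to 23-fold higher in replicate 3 than in the next highest replicate. The share of all genes that meet the same rule was not computed. Other interstitial chains were highest elsewhere: COL1A1, COL5A1 and COL6A1 in replicate 4, and COL5A2 and COL5A3 in replicate 1. Of the 18 detected collagen genes, 0 were highest in replicate 3 (13.3% of all detected genes were).

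The summed level of the 10 fibroblast markers was 5.77, 7.89, 18.6 and 8.38 TPM in replicates 1 to 4. The largest parts of it in replicates 2 to 4 were TWIST2 (0, 3.63, 6.64 and 4.77 TPM in replicates 1 to 4) and MFAP5 (0.658, 4.16, 5.93 and 2.99 TPM). Of the 10, 6 were highest in replicate 3, THY1 and PDGFRA among them on 2 and 6 counts. Among all detected genes 13.3% were, but only 3 of the 10 markers were detected, so that this share is over an unlike set. Of the detected markers, TWIST2 and MFAP5 were highest in replicate 3 and LUM in replicate 1. POSTN, a matrix protein of fibroblasts, was at 0, 0, 3.72 and 0 TPM, and VIM, the intermediate filament protein of mesenchymal cells, which is not on the list and was named after its values were seen, was at 3.62, 1.41, 16.6 and 3.58 TPM. By contrast DCN and LUM, small proteoglycans that mark fibroblasts, were highest in replicate 1 (1.63 and 3.35 TPM) and at 0.618 and 1.21 TPM in replicate 3, and PRRX1 and FAP were highest in replicates 1 and 4. The number of the 10 fibroblast markers without a count was 3, 7, 1 and 5 over replicates 1 to 4, and the 1 in replicate 3 was PRRX1. Among the keratinocyte markers, 6 of 10 were lowest in replicate 3 (40.2% of all detected genes were). DSP, a desmosomal plaque protein, was at 534, 271, 75.2 and 255 TPM. TP63, a transcription factor of basal cells, was at 90.7, 86.1, 34.5 and 73.4 TPM. The other markers were lowest elsewhere: KRT14 and KRT6A in replicate 4, and ITGB4 (105, 453, 186 and 471 TPM) and SFN (957, 2466, 2076 and 1557 TPM) in replicate 1. The part of other cells in the values of replicate 3 was not tested.

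**Figure D5:**
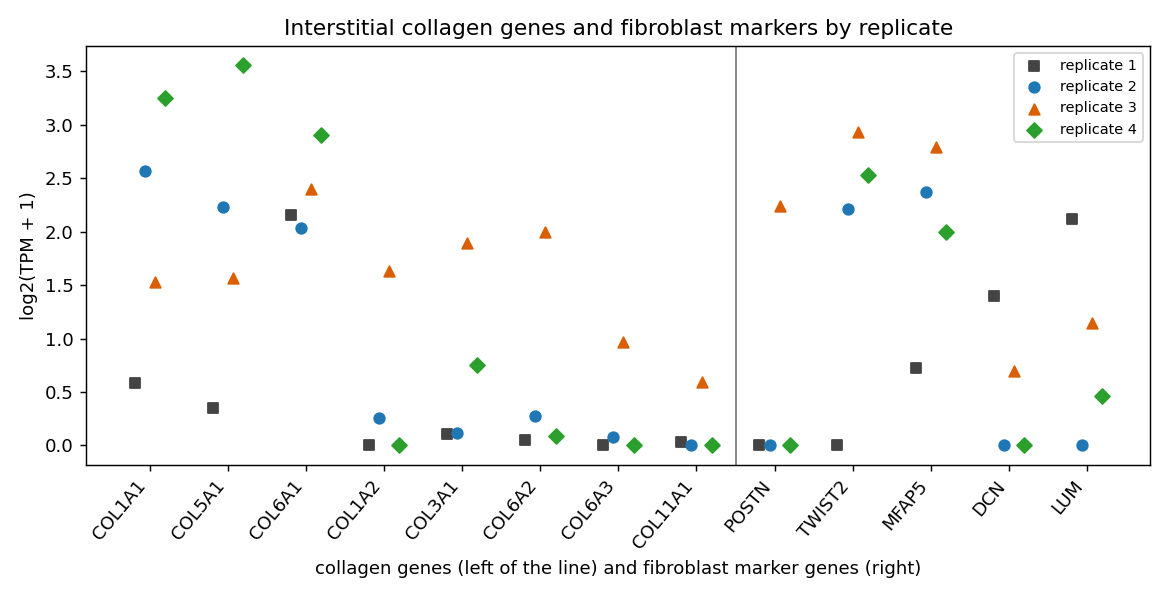
Level as log2(TPM + 1) of interstitial collagen genes (left of the line) and of the fibroblast markers POSTN, TWIST2, MFAP5, DCN and LUM (right of it), with 1 point per replicate. The other markers of the list are not shown. COL1A2, COL3A1 and COL6A2 reach 2.1 to 3.0 TPM in replicate 3 and are at most 0.685 TPM in the others, and POSTN has counts in replicate 3 alone.

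The highest genes of collagen assembly stood above each of the 43 collagen genes in mean level. COL17A1, which is not among the 43, had a mean of 473 TPM. Of 14 genes of proline and lysine modification, 11 were detected, beside 63.3% of all protein-coding genes. The highest by mean level were PPIB, a prolyl isomerase (1063 TPM), P4HB, the β subunit of prolyl 4-hydroxylase (535 TPM), and COLGALT1, a collagen galactosyltransferase (157 TPM). P4HA3, P3H3 and COLGALT2 were not detected. Of 16 folding and export genes, 15 were detected, with the general chaperones CALR (747 TPM), HSPA5 (517 TPM) and PDIA3 (458 TPM) highest and FKBP10, a collagen chaperone, at 0.157 to 0.926 TPM. SERPINH1, the collagen-specific chaperone HSP47, was at 243, 471, 382 and 414 TPM.

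Of 8 genes that remove propeptides or aid this, 3 were detected (63.3% of all protein-coding genes were), and 6 had a mean above 0.1 TPM. The detected ones were BMP1, the procollagen C-proteinase (77.5 TPM), and its enhancers PCOLCE (2.24 TPM) and PCOLCE2 (1.01 TPM). PCOLCE2 lay at the limit, at 0.0608, 1.48, 0.987 and 1.52 TPM in replicates 1 to 4. Without replicate 2, and without replicate 4, the list had 2 detected genes. The N-proteinases ADAMTS2, ADAMTS3 and ADAMTS14 and the BMP1 relatives TLL1 and TLL2 were not detected. Of 5 cross-linking oxidases, 3 were detected, near the 63.3% of all protein-coding genes, and 5 had a mean above 0.1 TPM. LOXL2 was at 3.46, 92.1, 37.9 and 152 TPM, LOXL1 had a mean of 14.5 TPM and LOXL3 of 3.97 TPM, while LOX and LOXL4 were not detected. LOXL2 was lowest in replicate 1 and highest in replicate 4, which 16 of the 49 detected genes on the 6 lists of collagen-handling and partner genes and 13.5% of all detected protein-coding genes were.

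Of 10 collagen receptors, 6 were detected, beside 63.3% of all protein-coding genes, and 5 without replicate 2, through which GP6 passed (0.272, 2.72, 0.491 and 0.533 TPM). Highest were DDR1, a receptor kinase of epithelia (225 TPM), and the integrin subunits ITGB1 (214 TPM) and ITGA2 (62.3 TPM). DDR2, the related kinase of mesenchymal cells, and ITGA10, ITGA11 and LAIR1 were not detected. Of the 11 partners of collagen in the basement membrane and its anchorage, 11 were detected, among them the laminin chains LAMB3 (612 TPM) and LAMA5 (205 TPM).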

How the data were processed

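RNA sequencing of 4 untreated HaCaT samples was analysed from gene tables. The deposited files held whole-number counts per gene with gene lengths, beside RPKM (replicates 1 and 2) or TPM (replicates 3 and 4) that the authors had computed; only the counts and lengths were used. The submitters' processing notes named HISAT2, TopHat2, Bowtie2 and HISAT and the build hg19, while the counting program, annotation and strand setting are not given in the sources used here. TPM was recomputed over the 19233 protein-coding rows of each replicate, and differences were taken as log2(TPM + 1). Detection was a mean above 1 TPM, and a fold limit of 2 was used between replicates. Chain pairs were compared with an exact two-sided sign-flip permutation test, since the levels compare genes within libraries of 1 group and no count model between groups applies. Every chain pair listed, every collagen gene above 1 TPM with its 4 values, those between 0.1 and 1 TPM by range, those without any count, and of each pathway list the highest 3 and the undetected genes were named, except for an item that is not reported here. Marker lists covered keratinocytes, fibroblasts, melanocytes, immune and endothelial cells. The members and lists were chosen with earlier results of these data known. Exon unions and GC content (of the longest coding transcript) came from GENCODE release 29, for 43 collagen genes and 97.1% of protein-coding rows (GC for 97.7% of detected genes). Alternatives were the pseudocount, the filter, the scaling, gene length and leaving out each replicate. Scripts were tested on simulated data and run in Python 3.11.15 with pandas 2.3.3, SciPy 1.17.1, NumPy 2.4.6 and, for plots, matplotlib 3.10.9.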

Additional observations from a re-analysis of the deposited data

Results flagged for a closer look

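The level of COL10A1 in replicate 1, 5.58 TPM, stood apart from the other replicates (0.457, 0.135 and 0.0816 TPM): its gap to the nearest was 0.932 of the whole range, beyond Dixon's 95% limit for 4 samples. COL10A1 passed the detection limit only through replicate 1 (0.225 TPM without it), so that the value being tested also let the gene into the test. It was the 1 such value among 33 sets of 4 values, where chance would flag about 1.65. NT5DC1, which overlaps COL10A1 on the other strand, was also highest in replicate 1, at 43.7 TPM against 21.0 to 34.1 TPM, and its part was not tested.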

How the results depend on the processing

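Of 105 alternative values of the chain differences, 104 kept their direction, but many of them could not have reversed. For the 7 pairs with 1 direction in every replicate, only the settings that change gene length could turn the sign. The pseudocount, the scaling and leaving out a replicate could not. COL11A2 minus COL11A1 ran from -0.02 to 0.23 when each replicate was left out, with the reversal without replicate 2. A pseudocount of 0 was possible for 6 of the 11 pairs. The number of detected collagen genes was 29 with a mean above 0.1 TPM and 11 with a level above 1 TPM in every replicate. With that lower limit, 5 cross-linking and 6 propeptide genes were detected, and 5 collagen genes each were highest in replicates 2 and 3. With TPM over all rows and detection on that scale (16 collagen genes), 0 were at least 2-fold higher in replicate 1, 0 were highest in replicate 1 and 0 in replicate 2; among the 18 genes of the report the first counts were 1 and 2 on that scale. The count of genes at least 2-fold apart within replicates 2 to 4 ran from 4 to 14 when each was left out. Without replicate 1, an alternative chosen after seeing the data, 2 genes were highest in replicate 2 and 1 in replicate 3. Of the alternative levels, 111 moved by less than the SD of their gene and 15 by more. That SD is wide for genes that 1 library carries. Leaving out 1 of 4 replicates cannot move a mean by its SD, so the 18 levels for each replicate left out could not have passed it. Of the 15, 13 were levels without gene length, a different unit from TPM. The tally thus tests stability only through the other settings. With TPM over all rows, 18 levels moved by less than the SD. With the union of exons as length 16 did, while COL12A1 was at 54.9 and COL6A1 at 6.31 TPM. Depth limits the low genes: 10 collagen genes had at most 3 counts in any replicate.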
